A study of Mus musculus with 23 samples.

Results

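The transcript response to heat was followed in whole mouse embryos that lack p53, over every array probe with at least 3 values among the null heat arrays and at least 3 among the null control arrays. These were 24428 of the 36227 probes of the series, read on 7 of its 23 arrays. The null heat group held 3 pools of p53 -/- embryos of day 8.5 kept in a 43 °C water bath for 10 minutes. The null control group held 4 pools of p53 -/- embryos of the same age from a bath at 38 °C for the same time. Heterozygous (p53 +/-) and wildtype (p53 +/+) pools of the same age, 4 per bath and genotype, served to set the null response against theirs. Matings of p53 heterozygous mice gave all embryos, and each pool held 3 to 7 whole embryos of 1 genotype and bath, so no array shows a single embryo or tissue. RNA of each pool was read on a CodeLink 1-colour array, on which biotin-labelled cRNA is detected with a fluorescent streptavidin, and the values are intensities in relative units. The time between bath and collection is not given in the sources used here. No probe used here carries the symbol Trp53, so the genotype labels were not checked with the targeted gene.

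When cells are heated, unfolded proteins release heat shock factor 1, a transcription factor that binds heat shock elements and turns on genes of chaperones, the proteins that hold and refold other proteins. Stress also reaches the metallothioneins, which bind metal ions and oxidants, and the ATF4 pathway, which raises amino acid transport and synthesis. p53 is a transcription factor that many kinds of stress stabilise, and it turns on genes of cell cycle arrest and cell death such as Cdkn1a and Bbc3. In embryos of this stage the neural tube is closing, and raised maternal temperature is a known cause of neural tube defects.

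The null arrays did not fall cleanly by bath. On the first principal component of all 23 arrays (34.1% of the variance) null heat A and null heat B lay at -16.2 and -11.9 and null heat C at 28.8, the last within the null control arrays at 18 to 42.9. The null control columns had 10965 to 11178 empty cells each and the null heat columns had 0, and the empty cells were mostly those of the dimmest and the brightest spots. Of the probes with a median under 0.5 on the null heat arrays 87.7% could not be tested, and of those over 200 67.4%, against 0.671% of those from 2 to 100. Most of the brightest transcripts, such as those of ribosomal proteins, Actb and the embryonic globin Hba-x, were therefore not compared. The lowest value used before normalization was 0.0759 to 0.101 on null heat arrays and 0.470 to 0.499 on null control arrays, so a dim probe can read lower in heat than a control column could show. Bath and the way the 2 sets of columns were processed cannot be told apart.

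Between null heat and null control 1144 of 24428 probes differed (4.68%), by limma with Benjamini-Hochberg adjustment over all probes tested and an adjusted p below 0.05. Of these, 596 rose (2.44%) and 548 fell (2.24%). "Rose" and "fell" are used below only for what passed this threshold, and, unless said otherwise, each value with ± is the log2 fold change, null heat over null control, with its SE, and each adjusted p is that of limma over all probes. Most changes were small: 63 rises and 16 falls reached 1 log2 unit, and 2 of each reached 2. On 1106 of the called probes the 3 heat arrays did not overlap the 4 control arrays, which was so on 22.4% of all probes tested. With 1 probe per gene, 745 of 13670 named genes changed (5.45%), 416 higher (3.04%) and 329 lower (2.41%), and the median log2 fold change over all genes was -0.02, with 6536 above 0. With arrays centred on their median, 32.4% of 1269 called probes were higher in heat, against 52.1% of the 1144, and the median over all probes was -0.13 in place of -0.04 log2 units. List medians are therefore also given under another scaling where it moved them by over 1.5 times or turned their sign. Single arrays carried much of the count. It was 268 without null heat B and 1526 without null heat C, 267 without null control B, 543 without control C and 668 without control D. Across all 7 fits that leave out an array 187 probes kept their call, 123 higher and 64 lower. In whole-embryo RNA, fewer cells of a type and less RNA per cell cannot be told apart.

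**Figure D1:**
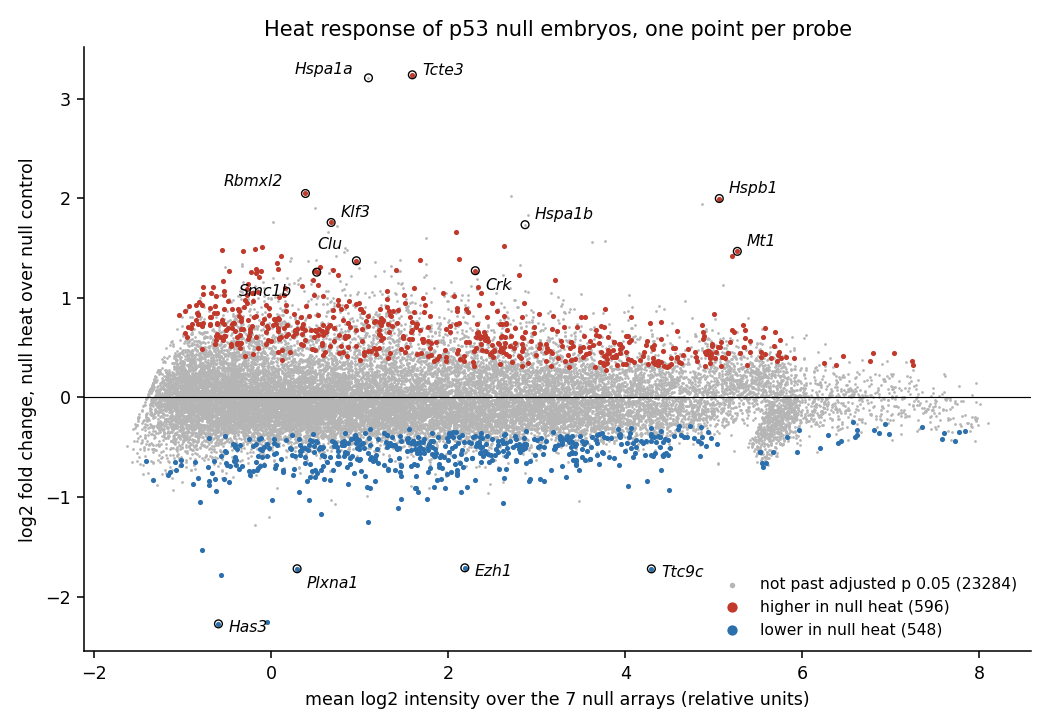
Each point is a probe, with its mean log2 intensity over the 7 null arrays on the x axis and its log2 fold change, null heat over null control, on the y axis. The 596 probes that rose (red) and the 548 that fell (blue) lie mostly within 1 log2 unit of 0, Tcte3 stands highest among them at 3.24, and Hspa1a and Hspa1b (circled, not coloured) did not pass.

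The largest rise belonged to a gene known from testis. Tcte3, a dynein light chain, read 10.3, 11.9 and 10.6 on null heat arrays A to C, against 0.922, 1.30, 1.15 and 1.28 on null control arrays A to D (3.24 ± 0.13, limma adjusted p = 1.51e-13). Rbmxl2, which binds RNA in male germ cells, read 2.68, 2.98 and 3.18 in null heat pools, against 0.730, 0.577, 0.681 and 0.894 in null control pools (2.05 ± 0.14, adjusted p = 1.87e-08). Both read low in every control pool, and every heat pool was above all of them. Smc1b, the cohesin subunit of meiotic chromosomes, read 2.08, 2.20 and 2.83 in null heat pools, against 0.947 to 1.03 in null control pools (1.26 ± 0.15, adjusted p = 8.92e-05). Dmc1, the meiotic recombinase, read 1.80, 1.85 and 2.40 in null heat pools, against 1.0 to 1.25 in null control pools (0.83 ± 0.13, adjusted p = 0.00148). For these 4 genes no heat pool overlapped a control pool, and the 4 calls held in all 21 alternative analyses. Of the 23 tested genes of the germline and meiosis list 5 rose (21.7%, against 3.04% of all genes) and 0 fell. The other was Tex19.1, a germ cell gene that restrains retrotransposons (1.21 ± 0.30, adjusted p = 0.0275). The Tex19.1 call was lost without null heat B for Tex19.1 (0.115), and without null heat A for Tex19.1 (0.0501) (adjusted p in parentheses). The same was seen without null control B for Tex19.1 (0.0585), and without null control C for Tex19.1 (0.0738). The list was drawn up with such rises already known, so its count is a description of these samples and not independent evidence.

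**Figure D2:**
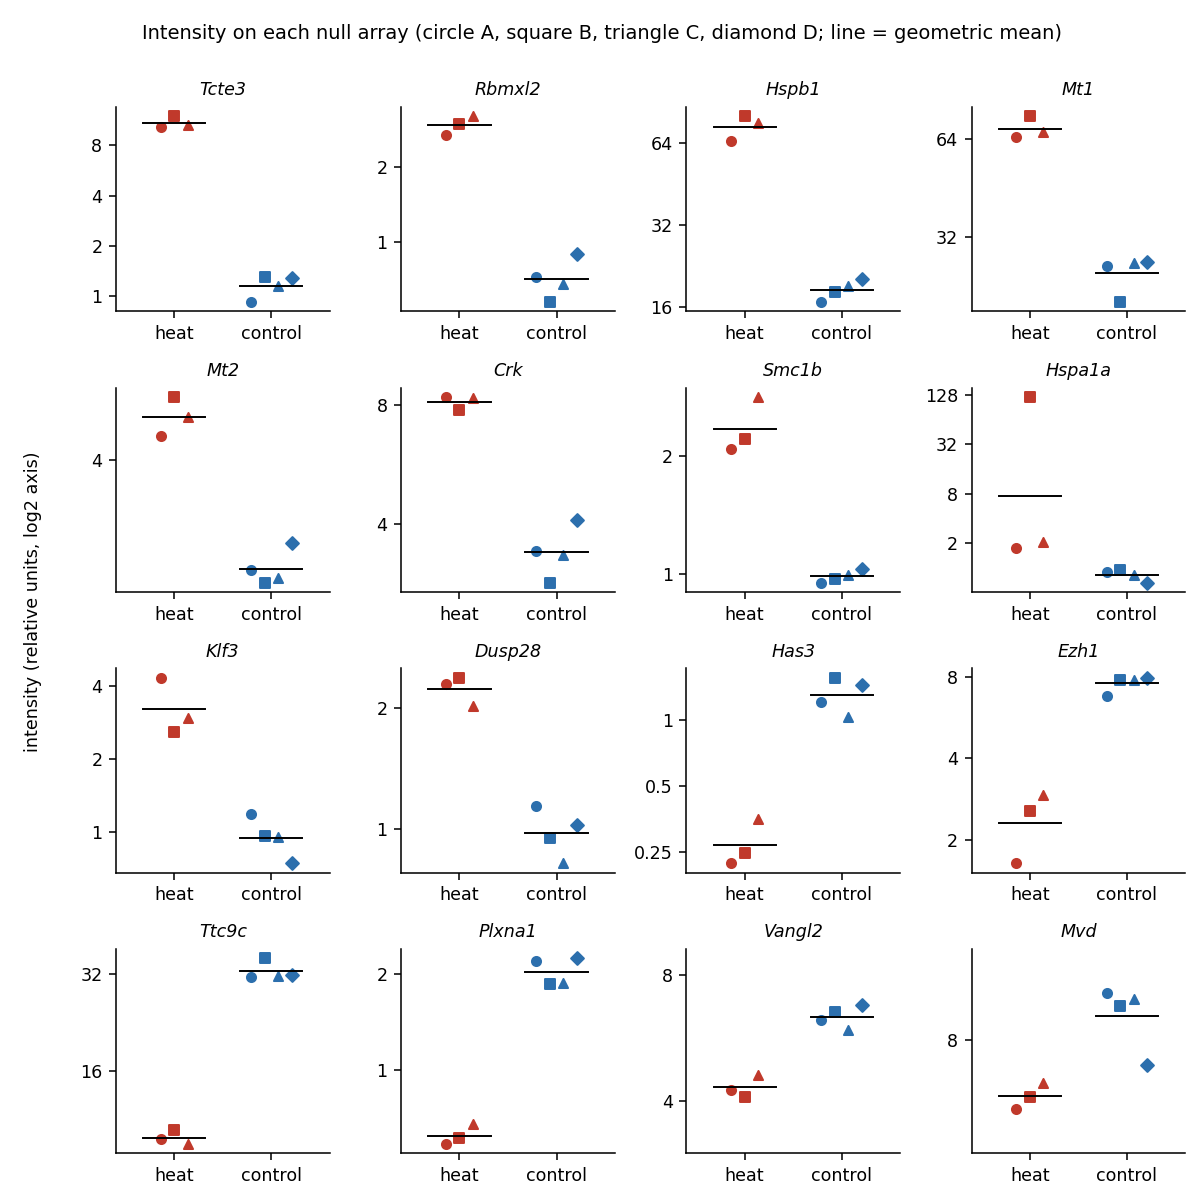
Intensity of 16 genes on each of the 3 null heat arrays (red, left) and the 4 null control arrays (blue, right), on a log2 axis, with replicate letters as symbols and the geometric mean as a line. Tcte3, Rbmxl2, Hspb1 and Mt1 are higher on each heat array than on any control array, and Hspa1a reads 120.0 on heat array B and 1.77 and 2.10 on heat arrays A and C.

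Among chaperones the response was led by a small heat shock protein. Hspb1, which binds unfolding proteins and protects actin filaments, read 65.1, 80.4 and 76.3 in null heat pools, against 16.6, 18.1, 19.07 and 20.2 in null control pools (2.0 ± 0.11, limma adjusted p = 2.19e-10). Hsp90aa1, the inducible cytosolic HSP90, read 153, 147 and 169 in null heat pools, against 110.0 to 123 in null control pools (0.45 ± 0.09, adjusted p = 0.0083). Each heat pool was above every control pool for both. Dnajb6, an HSP40 co-chaperone that keeps proteins from aggregating, read 40.5, 56.2 and 50.5 in null heat pools, against 28.6 to 32.4 in null control pools (0.65 ± 0.16, adjusted p = 0.0263), and its other probe rose too (0.57 ± 0.16, adjusted p = 0.045). Hsbp1, a small protein that binds heat shock factor 1 and restrains it, read 31.8, 42 and 34.2 in null heat pools, against 24.8 to 28.1 in null control pools (0.45 ± 0.09, adjusted p = 0.0109). With these, 4 of 41 heat shock proteins and chaperones rose (9.76%, against 3.04% of all genes) and 0 fell, and the list median was 0.23 (0.09 with median centring). The Hspb1 call held in all 21 alternatives. Under median centring and with the deposited values it was the 1 member of the list that rose. Calls were lost without null heat B for Dnajb6 (0.142) and Hsbp1 (0.0829) (adjusted p in parentheses). Among control pools, calls were lost without null control B for Dnajb6 (0.0846), and without null control C for Dnajb6 (0.0545). With median centring the adjusted p was above 0.05 for Hsp90aa1 (0.114), Dnajb6 (0.0608) and Hsbp1 (0.123), and with the deposited values for Hsp90aa1 (0.115), Dnajb6 (0.0855) and Hsbp1 (0.117).

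The classical inducible HSP70 genes were high in a single pool. Hspa1a read 1.77, 120.0 and 2.10 on null heat arrays A to C, against 0.895, 0.947, 0.823 and 0.666 on null control arrays A to D (3.21 ± 1.26, adjusted p = 0.125). Hspa1b, a neighbouring copy with nearly the same coding sequence, read 5.58, 93.5 and 5.85 in null heat pools, against 4.18 to 4.65 in null control pools (1.73 ± 0.87, adjusted p = 0.222). All 3 heat pools were above the control pools for both genes, pool B by far the most, and neither gene passed. Probes of such close copies may read both transcripts. The adjusted p of Hspa1a was 0.0716 without null heat C, 0.636 without null heat B and 0.0489 with a covariate for the highest value of each array. With that covariate 5133 probes passed in place of 1144. Dnajb1, the HSP40 partner of HSP70, read 9.48, 12.3 and 10.8, against 11.5 to 15.3 (-0.32 ± 0.20, adjusted p = 0.326), and Hsph1, an HSP110 exchange factor, read 3.11, 4.38 and 5.68, against 2.19 to 4.49 (0.36 ± 0.27, adjusted p = 0.411), with overlapping groups in both. Of 13 subunits of the CCT chaperonin and prefoldin, which fold actin and tubulin, 0 passed in limma and 3 had an unadjusted p under 0.05, all of them higher, among them Cct7 (0.51 ± 0.17, adjusted p = 0.0757). Of all genes 25.8% had such an unadjusted p, so 3 of 13 is near the share over all genes.

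The promoters show where the letters of a heat shock element occur in genes that rose. Windows of 300 bases, from 250 before to 50 after the annotated start, came from RefSeq on GRCm38.p6 and were at hand for 57 of the 71 named genes that rose. The core GAANNTTC, which reads the same on both strands, was found in 5 of the 57 (8.8%), near its share of 7.9% over all 32851 promoters. The 5 were Hspb1, Dnajb6, Asns, Bloc1s3 and Med18. Hspb1 held 2 cores, which begin 117 and 97 bases before the start site, and Dnajb6 held 1, which begins 46 bases before it. Tcte3, which rose most, held 0 in this window. These 3 promoters are printed 5′ to 3′ with matches to the core in capitals, to set the window with a doublet beside windows with 1 match and with none.
Hspb1, chr5:135887669-135887968, plus strand: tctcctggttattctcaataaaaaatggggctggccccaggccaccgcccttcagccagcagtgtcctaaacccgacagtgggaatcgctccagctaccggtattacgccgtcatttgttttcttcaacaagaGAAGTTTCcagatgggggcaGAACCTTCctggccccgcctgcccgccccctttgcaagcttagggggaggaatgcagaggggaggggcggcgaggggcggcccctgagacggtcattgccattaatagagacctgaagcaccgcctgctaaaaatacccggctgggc
Dnajb6, chr5:29735648-29735947, plus strand: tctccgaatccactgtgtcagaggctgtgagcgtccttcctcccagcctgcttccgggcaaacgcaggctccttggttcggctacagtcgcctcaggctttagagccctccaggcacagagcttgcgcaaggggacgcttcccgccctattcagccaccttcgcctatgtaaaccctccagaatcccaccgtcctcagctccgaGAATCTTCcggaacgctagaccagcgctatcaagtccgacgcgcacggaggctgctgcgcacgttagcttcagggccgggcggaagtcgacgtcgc
Tcte3, chr17:15041510-15041809, minus strand: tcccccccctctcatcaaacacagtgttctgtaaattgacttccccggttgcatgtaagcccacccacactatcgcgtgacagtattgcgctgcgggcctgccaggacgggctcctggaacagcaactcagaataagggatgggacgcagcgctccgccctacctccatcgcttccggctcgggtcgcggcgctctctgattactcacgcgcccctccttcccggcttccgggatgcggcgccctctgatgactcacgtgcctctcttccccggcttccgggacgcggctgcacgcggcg
A match is a likeness of letters and does not show that a factor binds there.

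Metallothioneins rose beside the small heat shock protein. Mt1, which binds zinc and copper, read 64.8, 74.8 and 66.9 in null heat pools, against 26.1, 20.3, 26.8 and 27 in null control pools (1.47 ± 0.16, limma adjusted p = 1.82e-05). Mt2, a neighbour of the same family, read 4.46, 5.33 and 4.86 in null heat pools, against 2.43, 2.29, 2.33 and 2.74 in null control pools (1.0 ± 0.20, adjusted p = 0.00902). Sqstm1, the autophagy receptor p62 and a target of oxidative stress signalling, read 50.7, 61.8 and 67.8 in null heat pools, against 38 to 41.2 in null control pools (0.61 ± 0.11, adjusted p = 0.00566). For all 3 each heat pool was above every control pool. With them 3 of 27 genes of the metal and oxidative stress list rose (11.1%, against 3.04% of all genes) and 0 fell, at a median of 0.28 (0.14 with median centring). Mt1 kept its call in all 21 alternatives. Of the other 2, a call was lost without null heat B for Mt2 (0.053) (adjusted p in parentheses). Centring arrays on their median took the adjusted p past 0.05 for Sqstm1 (0.0725), and the deposited values did so for Sqstm1 (0.078). The promoters of both metallothioneins hold repeats of the metal response element core TGCNCNC, searched on both strands, with 3 matches in Mt1 and 6 in Mt2. Of all promoters 51% held at least 1 match and 7.1% held 3 or more, and of the 57 promoters of named genes that rose 56.1% held at least 1. Both windows are printed as above, with matches to this core in capitals, because they differ in the number and spacing of the repeats while the genes moved together.
Mt1, chr8:94178839-94179138, plus strand: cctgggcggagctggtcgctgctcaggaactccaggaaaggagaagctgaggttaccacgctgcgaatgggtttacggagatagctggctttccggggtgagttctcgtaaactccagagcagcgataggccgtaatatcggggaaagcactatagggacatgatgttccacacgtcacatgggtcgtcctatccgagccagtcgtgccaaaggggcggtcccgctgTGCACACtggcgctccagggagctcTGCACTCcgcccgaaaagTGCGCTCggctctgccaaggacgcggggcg
Mt2, chr8:94172368-94172667, plus strand: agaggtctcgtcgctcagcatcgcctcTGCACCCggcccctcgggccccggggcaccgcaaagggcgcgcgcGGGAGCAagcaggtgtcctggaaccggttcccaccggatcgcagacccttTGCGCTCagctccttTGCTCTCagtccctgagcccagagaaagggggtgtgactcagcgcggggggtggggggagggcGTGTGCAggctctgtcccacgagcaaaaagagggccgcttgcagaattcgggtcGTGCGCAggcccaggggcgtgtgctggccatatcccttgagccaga

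Genes of the ATF4 pathway, which answers to amino acid shortage and other stresses, rose in part. Of 30 tested 5 rose (16.7%, against 3.04% of all genes) and 0 fell, and the list median was 0.37. Slc3a2, the heavy chain of several amino acid transporters, read 23.9, 22.5 and 22.5 in null heat pools, against 15.8, 12.4, 14.8 and 10.2 in null control pools (0.80 ± 0.13, adjusted p = 0.00143). Slc7a3, a carrier of cationic amino acids, read 3.0, 3.83 and 3.85 in null heat pools, against 2.55, 1.89, 1.81 and 1.79 in null control pools (0.83 ± 0.17, adjusted p = 0.0104). Neither transporter overlapped between the groups. Asns, asparagine synthetase, read 22.1, 21.8 and 28.7, against 15.2 to 19.4 (0.50 ± 0.12, adjusted p = 0.0203), and Stc2, a secreted glycoprotein, read 2.85, 2.96 and 4.77, against 1.86 to 2.22 (0.72 ± 0.17, adjusted p = 0.0228). The other was Vldlr, a lipoprotein receptor (0.73 ± 0.18, adjusted p = 0.0257). The Slc3a2 call held in all 21 alternatives. The limma adjusted p missed 0.05 without null heat B for Slc7a3 (0.0588) and Vldlr (0.112), and without null heat C for Asns (0.0662), Stc2 (0.0788) and Vldlr (0.0771) (adjusted p in parentheses). The threshold was also missed without null control B for Asns (0.0765), Stc2 (0.0801) and Vldlr (0.092). Under median centring, calls were lost for Asns (0.078), and under the values as deposited for Asns (0.0944).

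Autophagy and cell death genes also rose in part. Of 27 autophagy and lysosome genes 6 rose (22.2%, against 3.04% of all genes) and 0 fell, with a median of 0.16. Wipi1, which binds the lipids of the forming autophagosome, read 3.86, 4.36 and 3.99 in null heat pools, against 2.27 to 2.43 in null control pools (0.80 ± 0.15, adjusted p = 0.00639), and its call held in all 21 alternatives. Bnip3, a mitophagy receptor and BH3-only protein, read 43.9, 58.2 and 60.7 in null heat pools, against 28.7 to 37.5 in null control pools (0.73 ± 0.15, adjusted p = 0.00817). Map1lc3b, the LC3 protein of autophagosome membranes, read 31.1, 37.1 and 30.4, against 21.9 to 27.5 (0.40 ± 0.10, adjusted p = 0.025). With Sqstm1 these were cargo receptors and proteins of the autophagosome membrane, and the lysosomal genes Ctsl (0.84 ± 0.22, adjusted p = 0.032) and Lamp2 (0.54 ± 0.15, adjusted p = 0.0457) completed the 6. Of 31 genes of the death-promoting BCL2 family and apoptosis 4 rose (12.9%, against the same 3.04%) and 0 fell, at a median of 0.14 (0.05 with median centring). Hrk, a BH3-only protein that neutralises BCL2, read 1.13, 1.73 and 1.14 in null heat pools, against 0.504 to 0.692 in null control pools (1.13 ± 0.18, adjusted p = 0.00167) and also held in all 21 alternatives. Bok (0.61 ± 0.13, adjusted p = 0.0142) and Bak1 (0.49 ± 0.14, adjusted p = 0.0441), which permeabilise the outer mitochondrial membrane, rose with Bnip3. For each gene given by pool here the heat pools were above all control pools. The threshold was not reached without null heat B for Bnip3 (0.0511), Map1lc3b (0.152), Ctsl (0.166), Lamp2 (0.167), Bok (0.0878) and Bak1 (0.224), without null heat A for Lamp2 (0.094) and Bak1 (0.108), and without null heat C for Ctsl (0.0531) (adjusted p in parentheses). An adjusted p above 0.05 was also reached without null control B for Map1lc3b (0.0625), Ctsl (0.105), Lamp2 (0.133), Bok (0.0542) and Bak1 (0.0711), without null control A for Lamp2 (0.0646), without null control C for Map1lc3b (0.0754), Ctsl (0.0619), Lamp2 (0.0932) and Bak1 (0.106), and without null control D for Ctsl (0.0571) and Bak1 (0.111). The threshold was missed with median centring for Map1lc3b (0.136) and Bak1 (0.0511), and with deposited values for Map1lc3b (0.138).

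No target of p53 on the list passed in embryos without p53. Of 42 tested 0 rose and 0 fell in limma, and 10 had an unadjusted p under 0.05 (8 higher and 2 lower), while 25.8% of all genes had. The list median was 0.12. Cdkn1a, the p21 inhibitor of cell cycle kinases, read 3.93, 4.65 and 1.23 in null heat pools, against 1.44, 1.20, 1.47 and 1.07 in null control pools (1.14 ± 0.52, adjusted p = 0.183). Heat pools A and B were thus above all control pools and heat pool C among them. The limma adjusted p was 0.0545 without heat C and 0.0165 with the covariate for the highest value, under which 5133 probes passed. Over the alternatives the adjusted p of Cdkn1a reached up to 0.948, with log2 fold changes from 0.09 to 1.73. Ccng1, cyclin G1, read 3.02, 1.24 and 1.39, against 1.25 to 1.58 (0.28 ± 0.21, adjusted p = 0.405), with heat pool A alone above the control pools. Pmaip1, the BH3-only protein Noxa, read 4.87, 10.2 and 4.88, against 3.54 to 4.47 (0.60 ± 0.28, adjusted p = 0.182), and was highest in heat pool B. Bbc3, the BH3-only protein Puma, read 2.48, 2.33 and 2.20, against 2.16 to 2.82 (-0.12 ± 0.20, adjusted p = 0.728), with overlapping groups. Mdm2, the ubiquitin ligase of p53, overlapped too, at 0.549, 0.749 and 0.918, against 0.389 to 0.738 (0.49 ± 0.30, adjusted p = 0.322). Of 30 immediate early genes, the fast transcription factors of signalling, 0 passed in limma and 11 had an unadjusted p under 0.05, 10 of them higher.

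Of the cell division genes, a few of mitosis rose. Of 40 G2/M and mitosis genes 4 rose (10%, against 3.04% of all genes) and 0 fell. In 36 the fold change was above 0, against 6536 of all 13670 genes, and the median was 0.23 (0.13 with median centring). Bub3, a spindle checkpoint protein, read 113, 95.8 and 104 in null heat pools, against 71.6 to 86.3 in null control pools (0.42 ± 0.10, adjusted p = 0.0214). Aurka, a spindle pole kinase, read 31.4, 32 and 17.6, against 12 to 21.1 (0.74 ± 0.20, adjusted p = 0.0376), with heat pool C inside the control range. A second probe did not pass for either gene (Bub3 -0.08 ± 0.13, adjusted p = 0.72, and Aurka 0.02 ± 0.15, adjusted p = 0.955). Cdc20 (0.44 ± 0.12, adjusted p = 0.0426) and Fbxo5 (0.57 ± 0.16, adjusted p = 0.0426), an activator and an inhibitor of the anaphase-promoting complex, also rose. The number of rises in this list was 3 with median centring, 2 with deposited values and 0 with a covariate for the score of each array along the difference of heterozygous control pools A and B from C and D, and leaving out a single array could also take it to 0. Of 42 G1/S and replication genes 0 rose and 1 fell, E2f3 (-0.47 ± 0.11, adjusted p = 0.025), a transcription factor that starts S phase. Calls of the genes named here were lost without null heat B for Aurka (0.19), Cdc20 (0.243), Fbxo5 (0.187) and E2f3 (0.0989), without null heat A for Bub3 (0.0689), Aurka (0.117) and Cdc20 (0.0777), and without null heat C for Fbxo5 (0.0769) and E2f3 (0.0639) (adjusted p in parentheses). Of the control arrays, a call was lost without null control B for Bub3 (0.0743), Aurka (0.0903), Cdc20 (0.114), Fbxo5 (0.104) and E2f3 (0.0814), without null control A for Cdc20 (0.0535) and Fbxo5 (0.0541), without null control C for Aurka (0.0812), Cdc20 (0.0806) and Fbxo5 (0.0765), and without null control D for Bub3 (0.0568), Aurka (0.105), Cdc20 (0.0789), Fbxo5 (0.0928) and E2f3 (0.0572). With median centring the adjusted p was above 0.05 for Bub3 (0.0558) and Cdc20 (0.155), and with the deposited values for Cdc20 (0.0873) and Fbxo5 (0.0647).

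A few genes that clear damaged proteins rose, where 3.04% of all genes did. Of 38 proteasome and ubiquitin genes 4 rose (10.5%) and 0 fell: the proteasome activator Psme3 (0.45 ± 0.10, adjusted p = 0.0201), the lid subunit Psmd11 (0.44 ± 0.11, adjusted p = 0.0244), the core subunit Psma1 (0.43 ± 0.12, adjusted p = 0.0401) and Ufd1 (0.52 ± 0.14, adjusted p = 0.0426), which delivers ubiquitinated proteins. The other Psmd11 probe did not pass (0.01 ± 0.19, adjusted p = 0.972). The list median was 0.09 (-0.01 with median centring). These calls were lost without null heat B for Psme3 (0.0704), Psmd11 (0.147), Psma1 (0.142) and Ufd1 (0.19), without null heat A for Psme3 (0.0732) and Psmd11 (0.0512), and without null heat C for Psma1 (0.103) and Ufd1 (0.0585) (adjusted p in parentheses). The same was seen without null control B for Psme3 (0.0688), Psmd11 (0.0504), Psma1 (0.111) and Ufd1 (0.119), without null control A for Psma1 (0.0549) and Ufd1 (0.0532), without null control C for Psmd11 (0.0562), Psma1 (0.0774) and Ufd1 (0.0764), and without null control D for Psmd11 (0.0607), Psma1 (0.0695) and Ufd1 (0.0777). Centring arrays on their median took the adjusted p past 0.05 for Psmd11 (0.129) and Psma1 (0.158), and the deposited values did so for Psmd11 (0.0526), Psma1 (0.162) and Ufd1 (0.0565).

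Several large rises lay outside these pathways. Clu, the extracellular chaperone clusterin, read 3.19, 4.02 and 2.94 in null heat pools, against 1.14 to 1.46 in null control pools (1.37 ± 0.18, adjusted p = 0.000219). Crk, an adaptor of integrin and growth factor signalling, read 8.40, 7.78 and 8.37 in null heat pools, against 2.83 to 4.09 in null control pools (1.27 ± 0.13, adjusted p = 1.66e-05). Klf3, a zinc finger repressor, read 4.33, 2.58 and 2.95, against 0.743 to 1.19 (1.76 ± 0.32, adjusted p = 0.00473). Resf1, a silencer of retroelements, read 8.39, 9.49 and 6.92, against 2.0 to 4.02 (1.66 ± 0.30, adjusted p = 0.00496), and its other probe did not pass (0.60 ± 0.28, adjusted p = 0.191). Frmd3, a FERM domain protein, rose by 1.51 ± 0.21 (adjusted p = 0.000539), and Krt19, a keratin of simple epithelia, by 0.71 ± 0.11 (adjusted p = 0.00143). The calls of these 6 genes held in all 21 alternatives. Rab11b, a GTPase of recycling endosomes, read 15.6, 12.5 and 7.38, against 2.59 to 5.83 (1.52 ± 0.35, adjusted p = 0.018), but its other probe did not pass (-0.06 ± 0.09, adjusted p = 0.71). Cirbp, a cold-inducible RNA-binding protein, read 37.9, 33 and 41, against 19.6 to 31.8 (0.58 ± 0.15, adjusted p = 0.0275). Those 2 calls were lost without null heat B for Rab11b (0.0853), without null heat A for Rab11b (0.0642) and Cirbp (0.062), and without null heat C for Cirbp (0.0651) (adjusted p in parentheses). Among control pools, calls were lost without null control B for Rab11b (0.056) and Cirbp (0.096), without null control A for Cirbp (0.066), and without null control D for Rab11b (0.0512). Under median centring, calls were lost for Cirbp (0.0898), and under the values as deposited for Cirbp (0.0738).

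The other 6 of the 15 largest rises did not keep their call in all alternatives. Zfp292, a zinc finger protein, read 1.62, 2.37 and 1.04 in null heat pools, against 0.495 to 0.647 in null control pools (1.49 ± 0.35, adjusted p = 0.0217). Syncrip, an RNA-binding protein of mRNA transport, read 1.70, 1.24 and 0.693, against 0.383 to 0.453 with 3 control values (1.48 ± 0.33, adjusted p = 0.018), and Norad, a noncoding RNA that binds Pumilio proteins, rose as well (1.35 ± 0.30, adjusted p = 0.0142). The normalized control values of Syncrip lie under the lowest level used for the null control arrays before normalization, although the 2 scales are not the same. The other Norad probe did not pass (0.22 ± 0.11, adjusted p = 0.21), and neither did the 3 other Syncrip probes (0.60 ± 0.21, adjusted p = 0.101, then 0.41 ± 0.17, adjusted p = 0.148, and 1.05 ± 0.43, adjusted p = 0.141). Xpnpep3, an aminopeptidase of mitochondria, rose by 1.47 ± 0.40 (adjusted p = 0.0396), Dpysl3, a protein of growing axons, by 1.39 ± 0.40 (adjusted p = 0.0479) and Tmem115, a Golgi membrane protein, by 1.31 ± 0.35 (adjusted p = 0.0376). In all 6 every heat pool was above every control pool, which the rule for the largest rises required. Calls of this group were lost without null heat B for Zfp292 (0.134), Syncrip (0.0784), Xpnpep3 (0.193), Dpysl3 (0.212), Norad (0.0784) and Tmem115 (0.17), and without null heat A for Syncrip (0.0615), Xpnpep3 (0.0932), Dpysl3 (0.133) and Tmem115 (0.101) (adjusted p in parentheses). The threshold was also missed without null control B for Zfp292 (0.0626), Syncrip (0.0688), Xpnpep3 (0.116), Dpysl3 (0.0916), Norad (0.0625) and Tmem115 (0.0761), without null control A for Dpysl3 (0.0677), without null control C for Zfp292 (0.0537), Xpnpep3 (0.0798), Dpysl3 (0.0812) and Tmem115 (0.0955), and without null control D for Xpnpep3 (0.0806), Dpysl3 (0.113) and Tmem115 (0.0936). The threshold was missed with median centring for Syncrip (0.0744) and Xpnpep3 (0.0528), and with deposited values for Syncrip (0.0626) and Xpnpep3 (0.0569).

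The largest falls were of unrelated genes. Has3, a hyaluronan synthase of the cell surface, read 0.222, 0.248 and 0.353 in null heat pools, against 1.21, 1.57, 1.04 and 1.45 in null control pools (-2.27 ± 0.19, limma adjusted p = 8.9e-06). Its normalized heat values lie under the lowest level used for the null control arrays before normalization, although the 2 scales are not the same. Endou, an endoribonuclease, read 0.340, 0.343 and 0.528 in null heat pools, against 1.97, 1.69, 1.93 and 1.98 in null control pools (-2.26 ± 0.53, adjusted p = 0.0242), and Lcp1, an actin-bundling protein of blood cells, read 0.409, 0.264 and 0.341 in null heat pools, against 1.29, 0.998, 1.09 and 1.22 in null control pools (-1.78 ± 0.42, adjusted p = 0.025). All of their heat values but the 0.528 of Endou lie under that level too, and neither call held in all alternatives. Ttc9c, a tetratricopeptide repeat protein, read 9.83, 10.5 and 9.49 in null heat pools, against 31.5, 35.9, 31.7 and 32 in null control pools (-1.72 ± 0.28, adjusted p = 0.00169). Ezh1, a Polycomb histone methyltransferase, read 1.64, 2.57 and 2.94 in null heat pools, against 6.79, 7.81, 7.80 and 7.95 in null control pools (-1.71 ± 0.36, adjusted p = 0.0108). In all 5 every heat pool was far below the control pools, where the rule for the largest falls took only genes without overlap. The calls of Has3, Ttc9c and Ezh1 held in all 21 alternatives. Plxna1, a semaphorin receptor of growing axons and neural crest cells, read 0.582, 0.607 and 0.673, against 1.86 to 2.25 (-1.72 ± 0.35, adjusted p = 0.00995). Rock1, a kinase that drives contraction of actin and myosin, read 5.09, 3.13 and 4.08, against 7.61 to 9.84 (-1.06 ± 0.25, adjusted p = 0.0208). Wwox, an oxidoreductase encoded at a common fragile site, read 1.44, 1.81 and 2.02, against 2.98 to 4.59 (-1.11 ± 0.21, adjusted p = 0.00672), fell on its other probe as well (-0.71 ± 0.17, adjusted p = 0.021) and held in all 21 alternatives. Mylk, which phosphorylates the myosin light chain, fell by 0.68 on the log2 scale (adjusted p = 0.0212). The other calls were lost without null heat B for Endou (0.105), Lcp1 (0.119), Rock1 (0.125) and Mylk (0.132), and without null heat A for Endou (0.0589) (adjusted p in parentheses). An adjusted p above 0.05 was also reached without null control B for Endou (0.0625), Lcp1 (0.0625), Rock1 (0.0585) and Mylk (0.0742), without null control C for Endou (0.0519) and Lcp1 (0.0507), and without null control D for Lcp1 (0.0522) and Mylk (0.0512). The call of Plxna1 (0.0594) was lost with a covariate for the score of each array along the difference of heterozygous control pools A and B from C and D.

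The other 7 of the 15 largest falls lay between -1.54 and -0.91 log2 units. Rgr, an opsin of the retinal pigment epithelium, read 0.355, 0.311 and 0.289 in null heat pools, against 0.799 to 1.04 in null control pools (-1.54 ± 0.27, adjusted p = 0.00388). Its normalized heat values were again under that lowest control level of the scale before normalization. Adcyap1r1, the receptor of the neuropeptide PACAP, read 1.09, 1.24 and 1.64, against 2.28 to 3.62 (-1.25 ± 0.25, adjusted p = 0.00951), but its other probe did not pass (-0.16 ± 0.16, adjusted p = 0.542). Gprin1, a G protein regulator of neurite growth, read 0.821, 0.879 and 0.992, against 1.67 to 1.95 (-1.03 ± 0.16, adjusted p = 0.00112). These 3 calls held in all 21 alternatives. Ephb6, an ephrin receptor without kinase activity, fell as well (-1.03 ± 0.24, adjusted p = 0.0182), as did Kcnk7, of the potassium channel family (-0.95 ± 0.20, adjusted p = 0.0126), Crybb2, a crystallin (-0.94 ± 0.26, adjusted p = 0.0458), and Stx2, a syntaxin of membrane fusion (-0.91 ± 0.25, adjusted p = 0.038). In all 7 every heat pool was below every control pool, which the rule for the largest falls required. Those last 4 calls were lost without null heat B for Crybb2 (0.195) and Stx2 (0.127), and without null heat A for Ephb6 (0.0501), Crybb2 (0.0812) and Stx2 (0.136) (adjusted p in parentheses). Of the control arrays, a call was lost without null control B for Crybb2 (0.075) and Stx2 (0.0818), without null control A for Crybb2 (0.0677) and Stx2 (0.0547), without null control C for Crybb2 (0.0949) and Stx2 (0.0798), and without null control D for Crybb2 (0.102) and Stx2 (0.0777). With median centring the adjusted p was above 0.05 for Crybb2 (0.0515), and with the deposited values for Crybb2 (0.0626) and Stx2 (0.0684). The call of Kcnk7 (0.0721) was lost with a covariate for the score of each array along the difference of heterozygous control pools A and B from C and D.

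Enzymes of cholesterol synthesis, which the SREBP transcription factors control, fell in part. Of 18 tested 5 fell (27.8%, against 2.41% of all genes) and 0 rose, and the list median was -0.28. Mvd, which decarboxylates mevalonate diphosphate, read 5.48, 5.86 and 6.33 in null heat pools, against 10.3, 9.61, 10.0 and 6.98 in null control pools (-0.63 ± 0.16, adjusted p = 0.0313). Idi1, the isopentenyl diphosphate isomerase, read 12.6, 8.36 and 14.4 in null heat pools, against 18.6 to 24.7 in null control pools (-0.89 ± 0.22, adjusted p = 0.025). Lss, lanosterol synthase, read 1.89, 2.02 and 2.45, against 3.20 to 3.55 (-0.68 ± 0.19, adjusted p = 0.0422), and Tm7sf2, a sterol reductase, read 9.34, 10.6 and 9.02, against 11.8 to 14.3 (-0.47 ± 0.11, adjusted p = 0.0169). In these 4 all heat pools were below all control pools. Pmvk, phosphomevalonate kinase, was the other (-0.29 ± 0.08, adjusted p = 0.045). With the values as deposited 0 of the 5 passed in limma, and with median centring 5 did. Calls missed the threshold without null heat B for Mvd (0.112), Idi1 (0.164), Lss (0.15) and Pmvk (0.103), without null heat A for Mvd (0.082), Lss (0.109) and Pmvk (0.0607), and without null heat C for Pmvk (0.111) (adjusted p in parentheses). The same was seen without null control B for Mvd (0.0916), Idi1 (0.0669), Lss (0.107), Tm7sf2 (0.066) and Pmvk (0.0958), without null control A for Mvd (0.0654), Lss (0.0551) and Pmvk (0.0666), without null control C for Mvd (0.0791), Idi1 (0.0538), Lss (0.0746) and Pmvk (0.106), and without null control D for Idi1 (0.0637), Lss (0.0851) and Pmvk (0.0689). With the values as deposited, calls were lost for Mvd (0.079), Idi1 (0.0517), Lss (0.0746) and Tm7sf2 (0.0739).

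A few genes of endoplasmic reticulum stress and of DNA repair were called, to be set against 5.45% of all genes. Of 24 tested 0 rose and 2 fell (8.33%). Sdf2l1, a chaperone cofactor of the endoplasmic reticulum, read 23.7, 24.7 and 20.2 in null heat pools, against 30.4 to 36 in null control pools (-0.59 ± 0.10, adjusted p = 0.00176), and held in all 21 alternatives. Creld2, another protein of that compartment, read 32.2, 26.2 and 22.3, against 33.1 to 37.7 (-0.41 ± 0.11, adjusted p = 0.0428). Of 48 genes of DNA damage signalling and repair 2 rose and 4 fell (12.5%). Pms2, of mismatch repair (0.86 ± 0.15, adjusted p = 0.00439), and Rad51c, of homologous recombination (0.82 ± 0.17, adjusted p = 0.0122), rose. Prkdc (-0.69 ± 0.17, adjusted p = 0.025) and Xrcc6 (-0.44 ± 0.12, adjusted p = 0.0344), which join broken DNA ends, fell, with Ung (-0.39 ± 0.11, adjusted p = 0.0367), which removes uracil, and Rad51b (-0.43 ± 0.13, adjusted p = 0.0498), a partner of Rad51c. The threshold was missed without null heat B for Creld2 (0.141), Prkdc (0.0545), Xrcc6 (0.121), Ung (0.139) and Rad51b (0.166), without null heat A for Prkdc (0.103), Ung (0.135) and Rad51b (0.115), and without null heat C for Creld2 (0.135) and Xrcc6 (0.0677) (adjusted p in parentheses). Among control pools, calls were lost without null control B for Creld2 (0.102), Rad51c (0.0504), Prkdc (0.066), Xrcc6 (0.0818), Ung (0.0716) and Rad51b (0.116), without null control A for Creld2 (0.0797), Xrcc6 (0.0604) and Ung (0.0697), without null control C for Creld2 (0.064), Xrcc6 (0.0791), Ung (0.0798) and Rad51b (0.081), and without null control D for Creld2 (0.0769), Prkdc (0.0627), Xrcc6 (0.0512), Ung (0.0598) and Rad51b (0.123). The deposited values took the adjusted p past 0.05 for Creld2 (0.0507), Prkdc (0.0736) and Xrcc6 (0.0848). The call of Pms2 (0.0651) was lost with only the null arrays fitted.

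Genes that shape the neural tube moved in both directions. Of 37 genes of planar polarity and neural tube closure 2 rose and 3 fell (13.5%, against 5.45% of all genes), at a median of -0.02 (-0.11 with median centring). Vangl2, a core planar polarity protein whose loss leaves the mouse neural tube open, read 4.25, 4.10 and 4.62 in null heat pools, against 5.92 to 6.76 in null control pools (-0.56 ± 0.10, adjusted p = 0.00323), and held in all 21 alternatives. A second Vangl2 probe ran the other way and did not pass (0.56 ± 0.20, adjusted p = 0.0953). Scrib, a polarity scaffold, read 24, 23 and 25.6, against 31.7 to 34.9 (-0.46 ± 0.10, adjusted p = 0.0109), and Tulp3, a trafficking protein of cilia, read 11.7, 11.6 and 13.4, against 14.6 to 17.4 (-0.41 ± 0.10, adjusted p = 0.0266). In these 3 all heat pools were below all control pools. Prickle2, another polarity protein (0.35 ± 0.09, adjusted p = 0.0394), and the endocytic receptor Lrp2 (0.62 ± 0.18, adjusted p = 0.0495) rose. The calls fell away without null heat B for Scrib (0.0597), Tulp3 (0.125), Prickle2 (0.168) and Lrp2 (0.113), without null heat A for Tulp3 (0.0692), and without null heat C for Prickle2 (0.0656) and Lrp2 (0.159) (adjusted p in parentheses). The threshold was also missed without null control B for Tulp3 (0.0765), Prickle2 (0.108) and Lrp2 (0.128), without null control A for Prickle2 (0.0535), without null control C for Prickle2 (0.0996) and Lrp2 (0.0918), and without null control D for Tulp3 (0.0684) and Lrp2 (0.115). Centring arrays on their median took the adjusted p past 0.05 for Prickle2 (0.0541) and Lrp2 (0.108), and the deposited values did so for Scrib (0.0529), Tulp3 (0.15), Prickle2 (0.0839) and Lrp2 (0.0944).

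Patterning and guidance lists gave few calls, to be set against the 5.45% of all genes, and Plxna1 stands in 2 of them. Of 34 brain patterning genes 0 rose and 1 fell (2.94%), the neural POU factor Pou3f2 (-0.83 ± 0.21, adjusted p = 0.0255), at a list median of -0.22. Of 33 neural crest and craniofacial genes 0 rose and 3 fell (9.09%), at a median of -0.13 (-0.21 with median centring): Plxna1, the cadherin Cdh6 (-0.59 ± 0.14, adjusted p = 0.0202) and Barx1 (-0.52 ± 0.15, adjusted p = 0.0471), a homeobox gene of the facial arches. Another Cdh6 probe ran the other way and did not pass (0.44 ± 0.18, adjusted p = 0.136). Of 46 axon guidance genes 8.7% were called, of which the semaphorin Sema4b rose (0.97 ± 0.23, adjusted p = 0.0206) and 3 fell, Plxna1 and the ephrin receptors Epha7 (-0.58 ± 0.13, adjusted p = 0.0145) and Ephb1 (-0.42 ± 0.10, adjusted p = 0.0178). Of these genes, calls were lost without null heat B for Pou3f2 (0.167), Barx1 (0.144), Sema4b (0.108) and Epha7 (0.0843), without null heat A for Barx1 (0.0648) and Ephb1 (0.0634), and without null heat C for Barx1 (0.0871) (adjusted p in parentheses). An adjusted p above 0.05 was also reached without null control B for Pou3f2 (0.0877), Cdh6 (0.0757), Barx1 (0.117) and Epha7 (0.0625), without null control C for Pou3f2 (0.053) and Barx1 (0.0775), and without null control D for Pou3f2 (0.0553) and Barx1 (0.118). On the deposited values the threshold was missed for Cdh6 (0.0541), Barx1 (0.0791), Epha7 (0.0734) and Ephb1 (0.0523).

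Signalling lists were called at shares close to that of all genes (4% for Wnt, 6.82% for FGF and BMP and 6.67% for retinoic acid, against 5.45%). Wnt3a, a posterior Wnt ligand, read 11.4, 8.66 and 10.3 in null heat pools, against 13.4 to 15.4 in null control pools (-0.50 ± 0.11, adjusted p = 0.0146), while Rspo3, which strengthens Wnt signals, rose (0.60 ± 0.16, adjusted p = 0.0388). They were the calls among 50 Wnt signalling genes. Bmp4, a ligand of dorsoventral patterning, read 13.1, 11.3 and 11 in null heat pools, against 6.12 to 9.47 in null control pools (0.69 ± 0.14, adjusted p = 0.00913), and Bmp2 read 9.77, 11.5 and 10.3, against 6.85 to 7.74 (0.50 ± 0.11, adjusted p = 0.0173), with its other probe not past the threshold (-0.02 ± 0.13, adjusted p = 0.947). Of 44 FGF and BMP genes the other call was a fall of Fgf5 (-0.38 ± 0.11, adjusted p = 0.0465). Cyp26a1, which degrades retinoic acid, rose (0.51 ± 0.12, adjusted p = 0.0242), as 1 of 15 genes of that pathway. Of 34 Hox genes 0 passed in limma and 7 had an unadjusted p under 0.05, and of 14 hedgehog genes 0 passed and 2 had such a p. The share with such a p over all genes was 25.8%. In this group calls were lost without null heat B for Wnt3a (0.109), Rspo3 (0.211), Bmp2 (0.105), Fgf5 (0.15) and Cyp26a1 (0.0989), without null heat A for Rspo3 (0.0901), Fgf5 (0.0766) and Cyp26a1 (0.0687), and without null heat C for Fgf5 (0.0717) (adjusted p in parentheses). Of the control arrays, a call was lost without null control B for Rspo3 (0.066), Bmp2 (0.0669) and Fgf5 (0.112), without null control A for Fgf5 (0.0564), without null control C for Rspo3 (0.0976), Fgf5 (0.0695) and Cyp26a1 (0.0565), and without null control D for Rspo3 (0.0833), Fgf5 (0.109) and Cyp26a1 (0.0584). With the values as deposited, calls were lost for Wnt3a (0.0738) and Fgf5 (0.074). The call of Bmp4 (0.0618) was lost with a covariate for the score of each array along the difference of heterozygous control pools A and B from C and D.

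Lists of oxygen, energy and RNA metabolism gave scattered calls, to be read against 5.45% of all genes. Of 24 hypoxia genes 2 rose and 0 fell (8.33%), at a median of 0.25: Bnip3 and Epor, the erythropoietin receptor, which read 0.889, 1.09 and 1.04, against 0.383 to 0.548 with 3 control values (1.07 ± 0.22, adjusted p = 0.0108). The control values of Epor reach under the lowest level used for the null control arrays before normalization, although the scales differ. Of 48 respiratory chain genes 3 rose and 1 fell (8.33%), at a median of -0.01 (-0.15 with median centring and -0.08 with deposited values), while with median centring 0 rose and 3 fell. Of 58 splicing factors 2 rose and 3 fell (8.62%), among them the splicing regulator Mbnl2 (0.47 ± 0.11, adjusted p = 0.0179) and the core protein Snrpd1 (-0.25 ± 0.07, adjusted p = 0.036). The other rise was Luc7l (log2 fold change 0.50, adjusted p = 0.0189), but its other probe fell (-0.47 ± 0.13, adjusted p = 0.0406). The Luc7l rise was also lost without null heat B and without null control B. Of 43 translation factors 2 rose and 1 fell (6.98%), and of the 31 ribosomal proteins dim enough for a control value 0 rose and 1 fell (3.23%). Among Epor, Mbnl2 and Snrpd1, calls were lost without null heat B for Epor (0.0546), Mbnl2 (0.0602) and Snrpd1 (0.123), without null heat A for Mbnl2 (0.0525), and without null heat C for Snrpd1 (0.0758) (adjusted p in parentheses). The same was seen without null control B for Epor (0.0667), Mbnl2 (0.0541) and Snrpd1 (0.0774), without null control C for Snrpd1 (0.0719), and without null control D for Snrpd1 (0.0893). Under median centring, calls were lost for Snrpd1 (0.0645), and under the values as deposited for Snrpd1 (0.169).

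**Figure D3:**
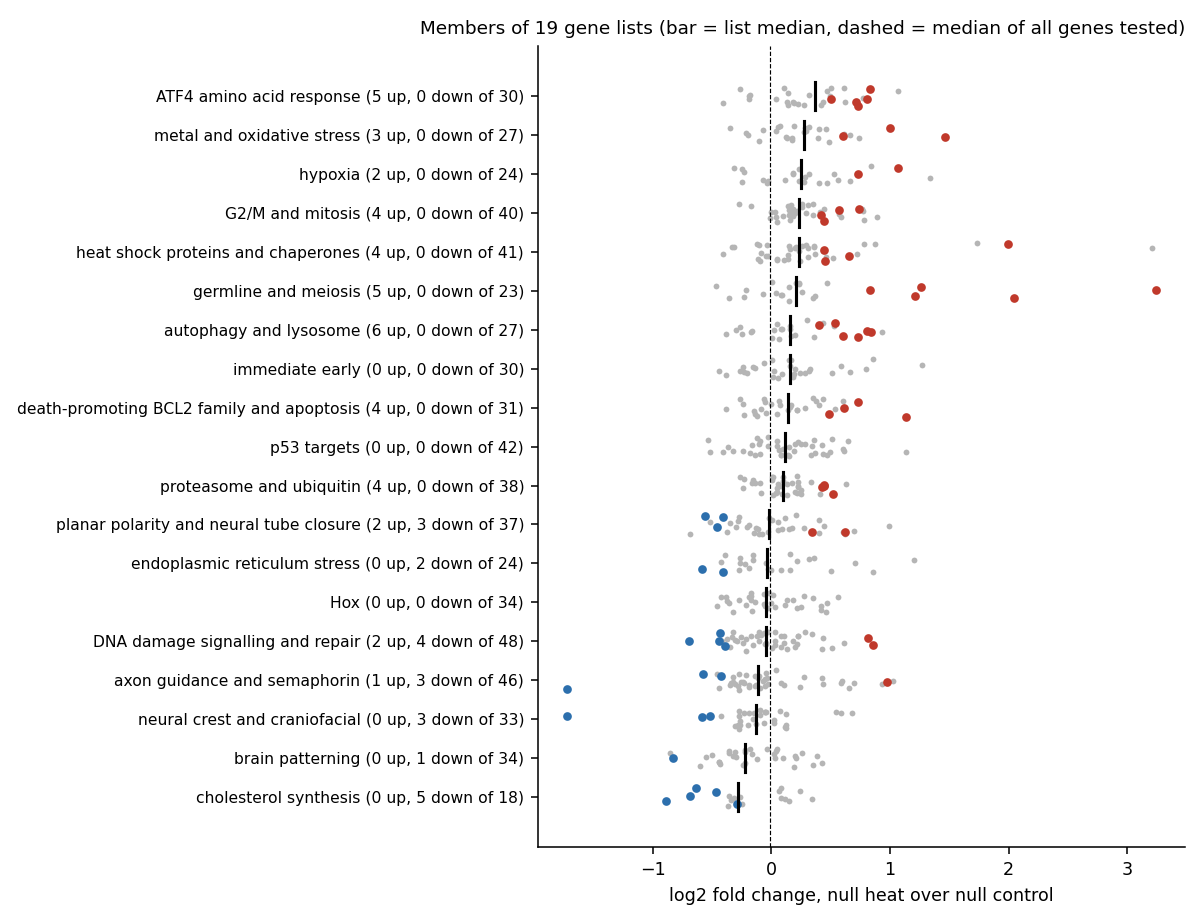
Each point is a tested gene of 1 of 19 lists, at its log2 fold change, null heat over null control, and red points rose, blue points fell and grey points did not pass. Of the lists drawn, that of ATF4 has the highest median (0.37) and that of cholesterol synthesis the lowest (-0.28), against -0.02 over all genes (dashed line).

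Markers of the embryo's tissues were present in both groups. The summed intensity of 5 neural markers was 29.9 to 34.3 in null heat pools and 30.7 to 32.2 in null control pools, and that of 4 somite markers 25.5 to 31.5 in null heat pools and 27.9 to 30.7 in null control pools. The 4 heart markers summed to 216 to 242 in null heat pools and 264 to 287 in null control pools, which do not overlap. Of them Myl7, an atrial myosin light chain, read 164, 147 and 178, against 208 to 235 (-0.41 ± 0.10, adjusted p = 0.026), and the sum follows it. Tnnt2 (log2 fold change 0.33, adjusted p = 0.502), Myl4 (0.16, adjusted p = 0.4) and Nkx2-5 (-0.11, adjusted p = 0.586) did not pass, and the median of the heart muscle list was 0.10 (-0.02 with median centring and 0.05 with deposited values). Myl7 was the 1 call among 36 heart muscle genes. Of 34 yolk sac and visceral endoderm genes 2 rose (5.88%, against 3.04% of all genes, and 1 with median centring) and 0 fell. They were Lrp2 and the lysosomal protease gene Ctsz (0.55 ± 0.14, adjusted p = 0.028, with 3 control values), and the list median was 0.34. The 3 yolk sac markers with a value on every null array summed to 126 to 169 in null heat pools and 87.5 to 161 in null control pools, and the 3 endothelial markers tested to 23 to 31.2 in null heat pools and 27.2 to 34.5 in null control pools. Of the 4 immune markers 0 could be tested, and of the 4 primitive red cell markers the globins Hbb-bh1 and Hba-x could not. The other 2, Gata1 and Klf1, summed to 1.81 to 1.96 in null heat pools and 1.33 to 1.58 in null control pools, which do not overlap, and neither passed (Gata1 0.12, adjusted p = 0.706, and Klf1 0.67, adjusted p = 0.0951). Each gene alone overlapped between the groups. Gata1 read 0.797, 0.820 and 1.24 in null heat pools, against 0.703 to 0.990 in null control pools. Klf1 read 1.01, 1.14 and 0.615, against 0.380 to 0.787, near the lowest level used for the null control arrays before normalization. Of all single probes tested, 22.4% did not overlap between the groups. Usp9y, a Y-linked gene, rose (0.52 ± 0.11, adjusted p = 0.0146), and Xist overlapped between the groups (0.549, 1.57 and 0.747 against 0.826 to 1.32, adjusted p = 0.773). The sex of the embryos in a pool is not given in the sources used here, and the part of tissue and sex makeup in the results was not tested. The Ctsz call was lost without null heat B for Ctsz (0.0989), and without null heat A for Ctsz (0.0654) (adjusted p in parentheses). Among control pools, calls were lost without null control B for Ctsz (0.0936), and without null control D for Ctsz (0.0912). The call of Usp9y (0.0651) was lost with only the null arrays fitted. The Myl7 call was lost without null heat A (adjusted p = 0.0502), heat B (0.132), control B (0.0902) or control C (0.0519), and with deposited values (0.0775).

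The null response was then set against those of the other genotypes, which share no array with it. In heterozygous pools 156 probes rose (0.653%) and 343 fell (1.44%), and in wildtype pools 278 rose (1.17%) and 385 fell (1.63%). Of the null rises, 77 were also rises in heterozygous pools, 12.9% of the null and 49.4% of the heterozygous ones, and 60 in wildtype pools, 10.1% of the null and 21.6% of the wildtype ones. Of the null falls, 105 were also falls in heterozygous pools (19.2% of the null and 30.6% of the heterozygous ones) and 66 in wildtype pools (12% of the null and 17.1% of the wildtype ones). In all 3 genotypes 40 probes rose and 54 fell. Tcte3 rose by 3.24 in null, 2.81 in heterozygous and 2.91 in wildtype pools on the log2 scale, and Hspb1 by 2.0, 2.05 and 2.38 in the same order. Hsp90aa1 rose by 0.45, 0.46 and 0.39, Mt1 by 1.47, 1.22 and 1.05 and Crk by 1.27, 0.81 and 0.67 in null, heterozygous and wildtype pools. For these 5 genes the difference from either genotype did not pass (adjusted p of 0.105 or more). Falls in all 3 genotypes included Mvd (-0.63, -0.90 and -0.71), Prkdc (-0.69, -0.85 and -0.64) and Sdf2l1 (-0.59, -0.54 and -0.38). Named after their values were seen, Smyd3, a lysine methyltransferase (-0.76, -0.99 and -0.90), and Fhit, like Wwox encoded at a fragile site (-0.47, -0.65 and -0.63), fell in all 3 as well. In null pools the call was lost without null heat B for Fhit (0.143), and without null heat A for Fhit (0.0866) (adjusted p in parentheses). The threshold was also missed without null control B for Fhit (0.105), without null control C for Fhit (0.0541), and without null control D for Fhit (0.0915).

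Few differences between genotypes could be called. The null response differed from the heterozygous response at 4 of 23895 probes (0.0167%) and from the wildtype response at 205 of 23684 (0.866%). The 4 were Dusp28, Bloc1s3, Med18 and Tasor, and each differed from the wildtype response too. Dusp28, a dual-specificity phosphatase, read 2.28, 2.37 and 2.02 in null heat pools, against 1.14, 0.952, 0.823 and 1.03 in null control pools. Its log2 fold change was 1.18 in null, -0.19 in heterozygous and -0.75 in wildtype pools, and the differences from those 2 genotypes had adjusted p-values of 0.0208 and 0.000152. Bloc1s3, of a complex that builds lysosome-related organelles, read 2.45, 2.96 and 2.74, against 1.14 to 1.53, and its fold change was 0.97 in null, -0.18 in heterozygous and -0.21 in wildtype pools (adjusted p of the differences 0.00857 and 0.0031). Med18, a Mediator subunit, read 10.0, 10.6 and 10.9, against 4.49 to 6.62, and its fold change was 0.95 in null, -0.19 in heterozygous and -0.27 in wildtype pools (adjusted p 0.0216 and 0.00572). Tasor, of the HUSH silencing complex, read 5.12, 6.78 and 6.29, against 2.94 to 3.55, and its fold change was 0.87 in null, -0.19 in heterozygous and -0.36 in wildtype pools (adjusted p 0.0274 and 0.00418). For all 4 the fold change was above 0 in null pools and below 0 in the other genotypes. Their rise in null pools held in all 21 alternatives. In the control bath these genes were lower in null than in wildtype pools (Dusp28 -0.95, Bloc1s3 -0.56, Med18 -0.57 and Tasor -0.64 on the log2 scale), a comparison that shares the 4 null control arrays with the null response. Without null heat B, 0 probes differed from the heterozygous response and 9 from the wildtype response in limma. Differences from the heterozygous response numbered 1 without null control B or C, and 2 without null control D or null heat C. They numbered 7 without null control A and 5 without null heat A, with the 4 genes among them. The 4 differences were thus less stable than the rises in null pools.

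Most of the largest changes also had a null control level apart from the wildtype control level, again with the null control arrays in common. This was so, by limma, for 9 of the 15 largest rises, all lower in null control pools, and for 10 of the 11 largest falls that could be tested, all higher. These genes were picked by their change from null control to null heat. That choice favours low null control values among the rises and high ones among the falls. The share over all probes was not counted, so these counts only describe the genes picked. In the control bath null pools were lower than wildtype pools, by limma, for Klf3 (-1.45), Rab11b (-1.43), Resf1 (-1.27), Clu (-0.54) and Crk (-0.43), which rose in null heat pools, and higher for Ezh1 (1.96), Ttc9c (1.78), Plxna1 (1.78) and Rock1 (1.14), which fell. Among the exceptions, for Tcte3 (-0.18), Rbmxl2 (0.17), Hspb1 (0.11) and Mt1 (-0.11) that difference did not pass (adjusted p of 0.347 or more). With SE as before, the null response itself differed from the wildtype response for Resf1 (by 2.01 ± 0.41, adjusted p = 0.0262), Frmd3 (by 1.29 ± 0.29, adjusted p = 0.0369), Epor (by 1.30 ± 0.29, adjusted p = 0.0387), Rad51c (by 1.01 ± 0.24, adjusted p = 0.0442) and Ttc9c (by -1.81 ± 0.38, adjusted p = 0.0262). Of the 42 p53 targets tested in null pools 5 differed in this way, against 80 of all 13670 genes, and Ccng1 and Bbc3 are named here. The null response differed for Ccng1 (by -1.25 ± 0.28, adjusted p = 0.0369), whose log2 fold change was 0.28 in null, 1.38 in heterozygous and 1.53 in wildtype pools. It also differed for Bbc3 (by -1.12 ± 0.27, adjusted p = 0.0467), at -0.12, 0.24 and 0.99 in the same order. Ccng1 in the control bath was also lower in null than in wildtype pools (-1.48, adjusted p = 0.000464). For Cdkn1a, at 1.14, 0.59 and 2.11, the difference from the wildtype response did not pass (-0.98 ± 0.71, adjusted p = 0.414).

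**Figure D4:**
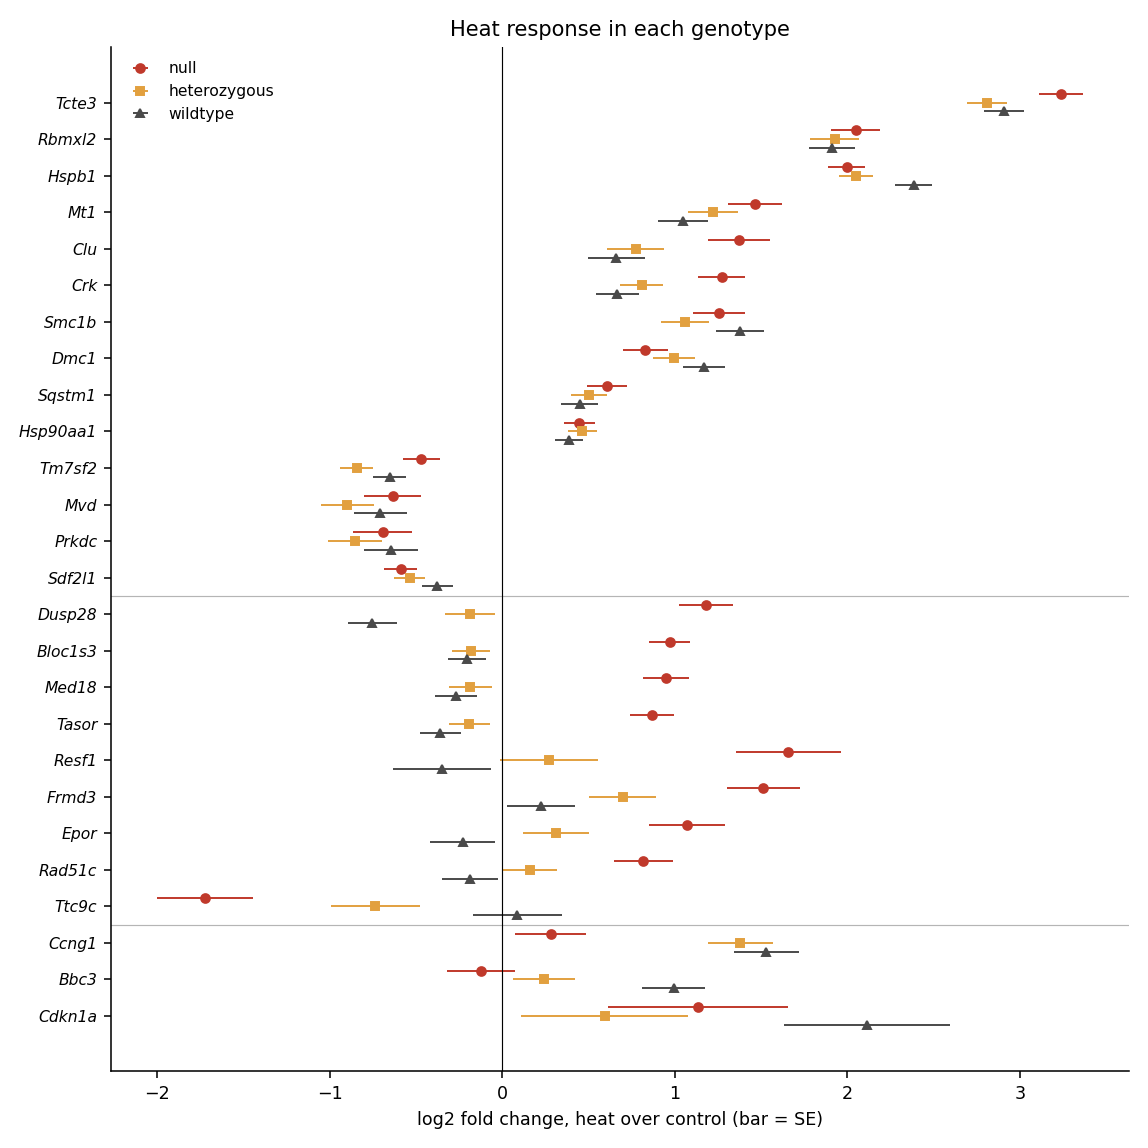
Log2 fold change, heat over control, with its SE as a bar, in null (red), heterozygous (orange) and wildtype pools (dark grey) for 26 genes. The upper 14 passed the same way in all 3 genotypes, with Tcte3 at 3.24 in null pools. Below the first line lie genes whose null response differed from that of wildtype pools, such as Dusp28 at 1.18, -0.19 and -0.75 in null, heterozygous and wildtype pools, and below the second the p53 targets Ccng1, Bbc3 and Cdkn1a.

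The null calls were recomputed under 21 other analyses. In all of them 118 probes kept their call, 79 higher and 39 lower. Among them was Hipk2, a kinase that phosphorylates p53, which fell (-0.50 ± 0.09, adjusted p = 0.00437), although another of its probes rose (0.74 ± 0.15, adjusted p = 0.0107). Of the 115 called genes that the naming rule picked, 71 lost their call with a covariate for a score of each array. The score runs along the difference of heterozygous control pools A and B from C and D. It was -0.604 to -0.242 on null control arrays, against -0.523 and -0.434 on heterozygous control C and D. On null heat arrays A to C it was 0.176, 0.425 and -0.295, and on wildtype control arrays 0.065 to 0.422. The score thus separates null from wildtype control arrays, and in part null heat from null control arrays. With this covariate 245 of the called probes kept their call. What sets the score was not tested.

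**Figure D5:**
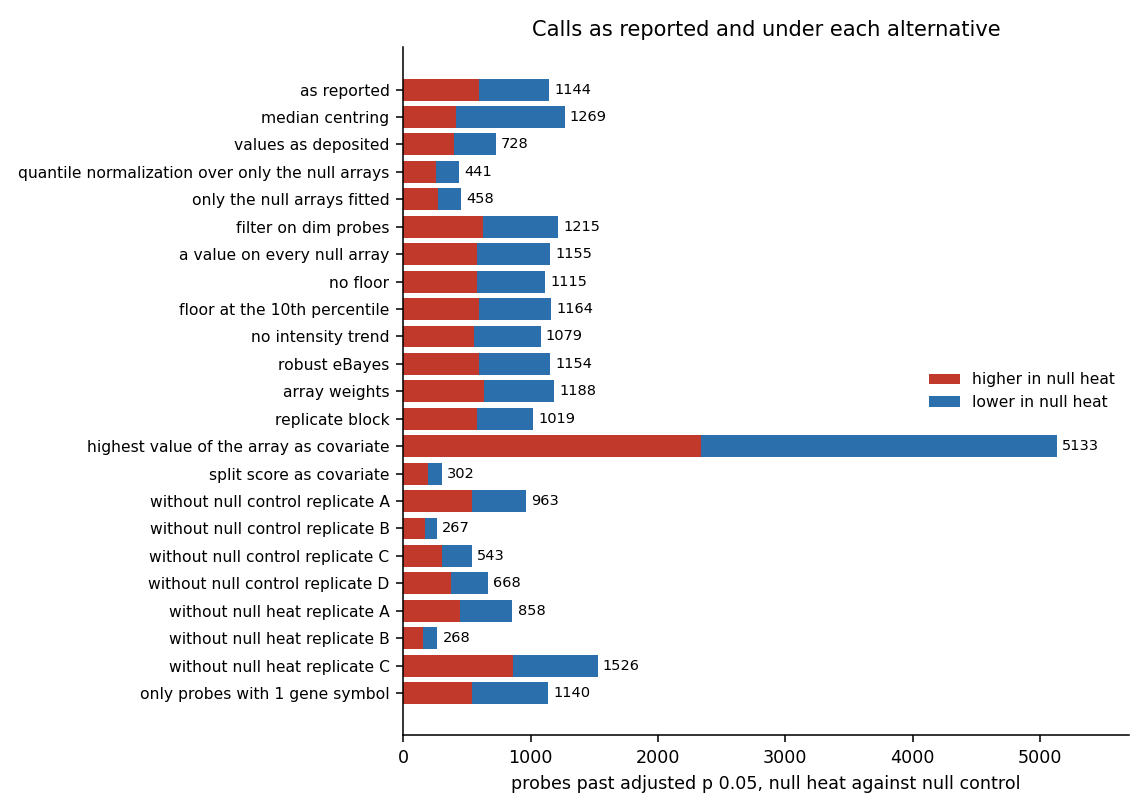
Number of probes past an adjusted p of 0.05 between null heat and null control as reported (top bar) and under each alternative, split into higher (red) and lower (blue) in heat. Leaving out null heat B or null control B gives 268 and 267, and a covariate for the highest value of each array gives 5133.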

How the data were processed

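The deposited values are linear 1-colour intensities in relative units, per the values and the labels' protocols, which name total RNA of pooled embryos, biotin-labelled cRNA and fluorescent streptavidin on CodeLink arrays. The sources used here do not give the scanner, the background step, the scaling or the spot filter. Cells coded -9999 and empty cells were taken as missing. On each array a floor was set at the 5th percentile of the values above 0, log2 was taken, and the 23 arrays were quantile normalized on the 18702 probes with a value on all of them. limma 3.58.1 in R 4.3.3 (lmFit, eBayes with an intensity trend) was fitted with the 6 group means over all 23 arrays. Null heat was compared with null control over probes with at least 3 values on each side, and the differences between heat responses over those that also had 3 in each group of the other genotype. p-values are two-sided and Benjamini-Hochberg adjusted, with a threshold of 0.05. Printed values of single pools are normalized intensities on the linear scale, and fold changes come from their log2 values. The lowest values used before normalization and the brightness limits of the untested probes are on the deposited scale. Nothing says that pools came from separate litters, so p-values measure the spread between pools. The number of arrays limits the precision.

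Of 36227 probes 21615 had 1 gene symbol in the platform annotation, 681 had several and 13931 had none, and none of the last 2 kinds was named. For gene counts and lists the probe with the highest mean stood for its gene. The members and the gene lists were chosen with earlier results of these data known. Genes were named by a rule: the 15 largest rises and 15 largest falls without overlap between arrays, up to 4 called members of each list by p (up to 2 where none passed), the 10 largest rises and falls that differed from both other genotypes, and a set of heat shock, p53 target, germline, metallothionein and X-inactivation genes in every case. Other genes were named after their values were seen, to complete a count: Tex19.1, Vldlr, Ctsl, Lamp2, Pmvk, Ung, Rad51b, Smyd3 and Fhit. The rule gave 137 genes, and not every list member among them is described. The alternatives were other scalings, filters, floors and variance models, the null arrays alone, covariates for array quality, the replicate letter as a block, and each null array left out. A further null heat pool was not analysed here.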

Additional observations from a re-analysis of the deposited data

Results flagged for a closer look

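In 6 of the 131 named genes with 4 null control values, 1 control pool lay apart from the other 3, with a gap to its neighbour that passed Dixon's 95% critical value as a share of the range of the group, where chance gives about 1 in 20. The genes, with the share of the range in parentheses, were Ezh1 at 6.79 in null control A (0.886), Slc7a3 at 2.55 in null control A (0.836), Mt1 at 20.3 in null control B (0.884), Ttc9c at 35.9 in null control B (0.887), Prkdc at 4.10 in null control D (0.9) and Sdf2l1 at 30.4 in null control D (0.881). All 6 passed between null heat and null control. Ezh1, Mt1, Ttc9c and Sdf2l1 kept their call when any 1 null array was left out, while Slc7a3 and Prkdc did not.

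The heat response of null pools differed from that of the other genotypes for 11 named genes, by the limma test of the difference itself. On the log2 scale, null minus wildtype, it was higher for Resf1 (2.01, adjusted p = 0.0262), Dusp28 (1.93, adjusted p = 0.000152), Epor (1.30, adjusted p = 0.0387), Frmd3 (1.29, adjusted p = 0.0369), Tasor (1.23, adjusted p = 0.00418), Med18 (1.22, adjusted p = 0.00572), Bloc1s3 (1.17, adjusted p = 0.0031) and Rad51c (1.01, adjusted p = 0.0442). It was lower for Ttc9c (-1.81, adjusted p = 0.0262), Ccng1 (-1.25, adjusted p = 0.0369) and Bbc3 (-1.12, adjusted p = 0.0467). Null minus heterozygous, it was higher for Dusp28 (1.37, adjusted p = 0.0208), Bloc1s3 (1.15, adjusted p = 0.00857), Med18 (1.14, adjusted p = 0.0216) and Tasor (1.06, adjusted p = 0.0274).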

How the results depend on the processing

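The count of 1144 probes between null heat and null control stayed within 1.5 times under median centring, the filters, the other floors, the other variance models, array weights and the replicate block. It was 728 with the values as deposited, 441 with quantile normalization over only the null arrays, 458 with only the null arrays fitted, 5133 with a covariate for the highest value of each array and 302 with one for its score along the difference of pools A and B from pools C and D in the heterozygous control group. Leaving out 1 array gave 267 to 1526. The 205 differences from the wildtype response became 386 with median centring, 618 with deposited values (73.1% of them higher in null, against 31.7%), 339 with array weights, 315 with the highest value, 62 with the split score, 90 with only probes of 1 gene symbol, an alternative chosen after seeing the data, and 9 to 257 without 1 array. The 4 differences from the heterozygous response became 1 with the split score and 0 to 7 without 1 array. Fewer probes or arrays enter some of these fits, and otherwise the cause was not tested. With the replicate letter as a block the counts were 1019 (897 of them shared), 186 and 5. Same-letter null arrays deviated from their group means with correlations of 0.175, -0.019 and 0.192 (A, B and C), so the letters were not taken to pair the pools. Of the 115 called named genes, calls were lost for 71 with the split score, 48 with only the null arrays fitted, 44 with deposited values, 24 with median centring and 16 with the block, and 0 reversed in any alternative. Dim signal and 3 against 4 pools limit what could be called.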

Other observations

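Other lists gave few calls, to be read against 5.45% of all genes. Of 47 matrix and collagen genes 2 rose and 1 fell in limma (6.38%): Dcn, the proteoglycan decorin (0.94 ± 0.23, adjusted p = 0.0246, with 3 control values), Lox, which crosslinks collagen (0.57 ± 0.16, adjusted p = 0.0437), and Vcan, the proteoglycan versican (-0.30 ± 0.08, adjusted p = 0.0332), which fell. Cldn5, a tight junction protein of vessel walls (1.04 ± 0.30, adjusted p = 0.0465), was the 1 call among 30 endothelial genes (3.33%). Ldhb, a lactate dehydrogenase subunit (0.50 ± 0.11, adjusted p = 0.0164), was the 1 call among 21 glycolysis genes, and Ebf1, a neuronal and lymphoid transcription factor (0.56 ± 0.15, adjusted p = 0.0398), among 29 proneural and neuron genes. Of 53 chromatin regulators Ezh1 fell and 0 rose, and of 18 histone genes H2ac13 fell (-0.63 ± 0.14, adjusted p = 0.0148). Of 9 immune genes 0 passed in limma and 1 had an unadjusted p under 0.05, where 25.8% of all genes had. Calls were lost without null heat B for Dcn (0.123), Vcan (0.107), Cldn5 (0.14), Ldhb (0.108) and Ebf1 (0.158), without null heat A for Lox (0.0631), Vcan (0.0589), Cldn5 (0.175) and Ebf1 (0.123), and without null heat C for Lox (0.145) and Vcan (0.0606) (adjusted p in parentheses). An adjusted p above 0.05 was also reached without null control B for Lox (0.0949), Vcan (0.104), Cldn5 (0.116), Ldhb (0.0649) and Ebf1 (0.0937), without null control A for Dcn (0.0532) and Ebf1 (0.0668), without null control C for Dcn (0.0678), Lox (0.0687), Vcan (0.0719), Cldn5 (0.0852) and Ebf1 (0.0711), and without null control D for Lox (0.115), Vcan (0.0769), Cldn5 (0.122) and Ebf1 (0.0751). The threshold was missed with median centring for Lox (0.188) and Ebf1 (0.0575), and with deposited values for Lox (0.129), Vcan (0.166) and Ldhb (0.0617). The call of H2ac13 (0.0742) was lost with only the null arrays fitted.

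A group of bright probes without a single gene symbol read low in 1 pool. It was chosen after seeing the data. Of 681 such probes with a mean log2 level between 5.4 and 6, 610 were lower in null heat, with a median log2 fold change of -0.22, and 8 passed. Their median intensity was 55.6, 38 and 51.7 in null heat pools A to C and 55.1 to 56 in null control pools, so heat pool B read low. The 408 probes with 1 symbol in the same range had a median log2 fold change of 0.16, and 18 passed. Their median intensity was 47.8, 59.2 and 54.9 in null heat pools A to C and 47 to 47.3 in null control pools. Whether the unnamed probes include control spots is not given in the sources used here, and their part in the normalization was tested only by fitting the named probes alone.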
